A study of Mus musculus with 8 samples.

Results

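Neutrophils made up 74 of the 6023 kept cell barcodes (1.23%) in 8 libraries of single cells from the organ of Corti of mice, the sensory strip of the cochlea, where supporting cells (SCs) surround the hair cells. They were chosen by measured values. A barcode was kept when it had at least 500 detected genes and under 25% of its unique molecular identifiers (UMIs, each a tag of 1 captured transcript) from mitochondrial genes, and a kept barcode was taken as a neutrophil when it had at least 20 UMIs summed over S100a8 and S100a9 and at least 1 UMI of any of 6 further genes (Retnlg, Ngp, Camp, Ltf, Mmp8 and Cxcr2). Levels of these 8 genes in the chosen barcodes are therefore a description of the selection and not a finding.

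Every animal carried Fgfr3iCre+, Atoh1-HA+, Chrna9-GFP+ and Rosa26-CAG-loxP-stop-loxP-tdTomato+, uninduced controls included. The inducible Cre is driven from Fgfr3, which marks Deiters' and pillar SCs, so that tamoxifen switches the Atoh1 transgene on in those cells. Uninduced libraries were Coch P12 (postnatal day 12, n = 2) and Coch P33 (n = 1), and libraries of animals given tamoxifen from P12, here called induced, were Coch + Tmx P26 (n = 3) and Coch + Tmx P33 (n = 2). The study describes 2 biological replicates per group, whereas the labels give 3 libraries of Coch + Tmx P26 and 1 of Coch P33. It gives the organs of induced animals as a total. How many animals were behind each library is not given in the sources used here, and the tests measure the spread between libraries only. No pair of libraries shared over 3 barcodes, and no neutrophil barcode was shared. Total UMIs ranged from 3972800 to 13423524 per library. One library, Coch + Tmx P26 rep 3 by its label, had Atoh1 at 12.3 CPM (UMIs of a gene per 1000000 UMIs), against 17.5 to 23.7 in the uninduced libraries and 90.5 to 524 in the other 4 induced libraries, which goes against its label, and it is called the P26 library labelled rep 3 here.

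Neutrophils are short-lived granulocytes made in bone marrow, which includes the marrow of the temporal bone around the ear. They fill their granules in a fixed order. Azurophil granules (Mpo, Elane, Prtn3) form at the promyelocyte stage and specific granules (Ltf, Camp, Ngp, Lcn2) at the myelocyte stage. Gelatinase granules (Mmp9) form later, and division stops as the later granules form. Mature cells carry Cxcr2, the receptor for the chemokines that call them out of the marrow, and in mice they express Retnlg. S100a8 and S100a9 form calprotectin, the most abundant protein of the neutrophil cytoplasm.

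The neutrophil share was lowest at P12. It was 0.145% in Coch P12 rep 1 (2 of 1382 kept barcodes, exact 95% binomial interval 0.0175 to 0.522%) and 0.114% in Coch P12 rep 2 (1 of 881, 0.00287 to 0.631%). Coch P33 had 1.03% (6 of 581, 0.38 to 2.23%). The 3 Coch + Tmx P26 libraries had 1.62% (13 of 801, 0.867 to 2.76%), 2.99% (17 of 569, 1.75 to 4.74%) and, in the P26 library labelled rep 3, 0.847% (5 of 590, 0.276 to 1.97%). Both Coch + Tmx P33 libraries were at the upper end, with 2.79% (14 of 502, 1.53 to 4.63%) and 2.23% (16 of 717, 1.28 to 3.6%). These intervals cover counting error only.

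Induced libraries held 2.1% ± 0.877 (SD, n = 5) and uninduced libraries 0.43% ± 0.522 (SD, n = 3), so that the induced ones were 1.67 percentage points higher, which did not pass the test (two-sided exact permutation p = 0.0714, where 0.0357 is the smallest this design allows). Of the 5 induced libraries, 4 lay above all 3 uninduced ones, and the P26 library labelled rep 3 lay below Coch P33. Without it the difference was 1.98 percentage points, and the groups no longer overlapped (p = 0.0571 by exact permutation, which is as low as 4 against 3 libraries can go). By age, Coch P12 (0.129% ± 0.0221, SD, n = 2) lay below all 6 later libraries (1.92% ± 0.896, SD, n = 6), a difference of −1.79 percentage points; the exact permutation p of 0.0714 is the smallest that 2 against 6 libraries can give, so this comparison could not pass 0.05. Both uninduced P12 libraries are also the only ones of that age, so age and induction cannot be told apart except at P33, where the 2 induced libraries stood against 1 uninduced library without a test. With a minimum of 1000 detected genes the induced difference fell to 0.825 percentage points, and neutrophils held fewer genes than other barcodes (median 761 to 1994 per library, against 1557 to 2634 in the rest).

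**Figure D1:**
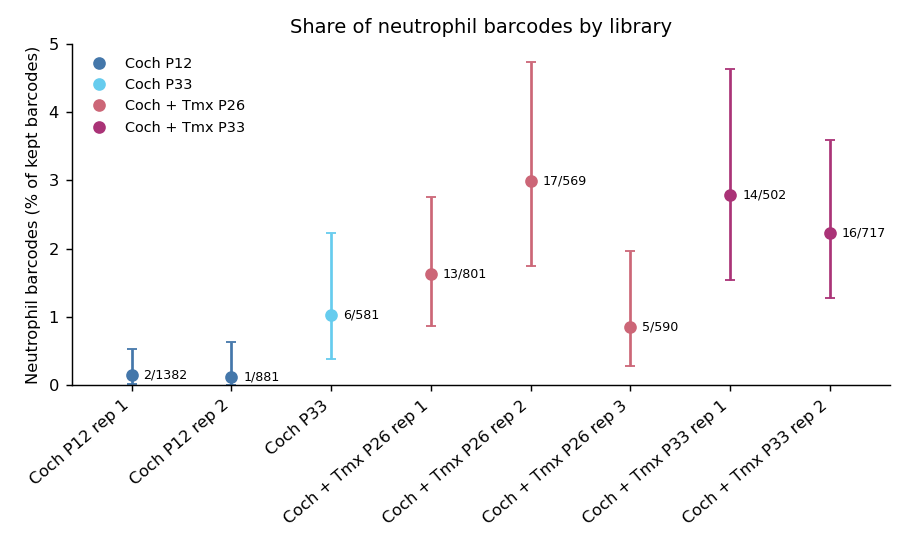
Neutrophil barcodes as a percentage of kept barcodes in each of the 8 libraries, with the exact 95% binomial interval as the error bar and the counts beside each point. Both Coch P12 libraries sit at 0.145% or below, and every later library sits at 0.847% or above.

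Of the 74 barcodes, 72 had UMIs of Retnlg, Ngp, Camp or Ltf, which the selection used, with Ngp in 70 and Camp in 67. The neutrophil genes Lcn2, Hp and Pglyrp1, which the selection did not use, were detected in all 74. The 2 barcodes without those 4 selection genes entered through Mmp8 alone. One, in Coch P33, had 78 calprotectin UMIs and 1 Mmp8 UMI, and the other, in Coch + Tmx P26 rep 1, had 440 and 5. UMIs of the monocyte genes Ccr2 and F13a1 were found in 3 barcodes, these 2 (3 and 2 of Ccr2, 2 and 4 of F13a1) and a deeper one of Coch + Tmx P33 rep 1 (7 and 3). The third had 452 Ngp and 729 Camp UMIs and 16.9% of its UMIs from calprotectin. For these 3 barcodes the monocyte genes go against the name neutrophil, which for the first 2 rested on calprotectin and Mmp8 among the selection genes. Ly6c2, also on the monocyte list, had UMIs in 70 of 74. Markers of eosinophils, basophils and mast cells were at 0 UMIs in all 8 libraries (6 of 6 genes). Macrophage markers summed to 0 to 234 CPM, with Cx3cr1, Mrc1 and Ms4a7 at 0, and B lineage markers summed to 0 to 85.8 CPM, with 5 of 7 genes at 0. Erythroid transcripts summed to 627 to 11564 CPM and were found in all 74 barcodes.

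The position of the calprotectin threshold mattered most for Coch P33. With at least 10 UMIs in place of 20, its share rose from 1.03% to 2.24%, above Coch + Tmx P26 rep 1 (1.62% under both), while the induced P33 libraries went from 2.79% to 3.19% and from 2.23% to 2.37%, and the other 5 libraries did not change. The lowest calprotectin sums among the chosen barcodes were 78, 145 and 440 UMIs. Of the barcodes left out, the highest had 46 UMIs (Coch P12 rep 1) with none of the further genes, followed by 19 UMIs in Coch P33 and 15 in Coch + Tmx P33 rep 1. The 2 at 19 and 15 UMIs were barcodes of 47665 and 40973 UMIs in all, deeper than any chosen one (2136 to 20106 UMIs).

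Calprotectin transcripts took up 26.1% to 34.2% of the neutrophil UMIs in each library, and the 10 leading genes together 48.9%, against 15% for the 10 leading genes of macrophage-like barcodes. S100a8 (chromosome 3, 90669071 to 90670034) and S100a9 (chromosome 3, 90692630 to 90695721; GRCm38.p6 coordinates, the mm10 build) are neighbouring protein-coding genes. These transcripts were also found outside the neutrophils. The other kept barcodes held 6.5 CPM of S100a8 plus S100a9 in Coch P12 rep 1, 18.3 in Coch P12 rep 2, 175 in Coch P33, 41.1, 106 and 52.6 in those of Coch + Tmx P26 and 145 and 134 in those of Coch + Tmx P33. The share of macrophage-like barcodes with at least 1 such UMI ran from 1.28% in Coch P12 rep 1 to 72% in Coch P33, so a few calprotectin UMIs did not mark a neutrophil in these libraries.

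Macrophage-like barcodes (606, at least 10 UMIs of C1qa, C1qb and C1qc) gave a picture of which genes came with the selection. Ranked by the ratio of pooled CPM in neutrophils to that in macrophage-like barcodes, and given without a test because the cells were chosen on related genes, 25 genes were taken from the top. Wfdc21, a whey acidic protein family member, had 8008 CPM in neutrophils against 1.61, a 4969-fold ratio. Camp, the cathelicidin antimicrobial peptide, had 48600 against 10.9, and Ngp, a neutrophil granule protein of the cystatin fold, had 52214 against 12.7. Both are selection genes, so their ratios follow from the selection. Lcn2, which binds bacterial siderophores, had 10658 against 2.82 CPM. Fcnb, a ficolin of the complement system, and Cd177, a neutrophil surface glycoprotein, had no UMI in macrophage-like barcodes and were at least 1286-fold and 1101-fold higher in neutrophils, with 3 counts over the macrophage-like barcodes as the floor. Ly6g, the surface protein used to sort mouse neutrophils, had 367 UMIs against 1. Cebpe, the transcription factor of specific granule formation, had 693 CPM against 0.806. Lyz2, lysozyme, differed little, with 15506 CPM against 10701.

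The 72 barcodes with Retnlg, Ngp, Camp or Ltf differed widely in stage genes. Because Retnlg, Ngp, Camp and Ltf were used in the selection, what follows is a description of the chosen barcodes. Retnlg and the 3 specific granule transcripts Ngp, Camp and Ltf ran against each other over these barcodes (Spearman's rho = −0.774, n = 72 barcodes), which share libraries and differ in depth: total UMIs had rho = −0.679 with the Retnlg share and 0.601 with the specific granule share. Cutoffs chosen after the values were seen split the range. The proliferation cutoff is a count of UMIs and the Retnlg cutoff a share, so deep barcodes reach the first more easily. In 21 barcodes, at least 5 UMIs came from 10 proliferation genes (Mki67, Top2a, Cdk1 and others). They had a median of 10673 UMIs, a median of 13.1% of UMIs from Ngp, Camp and Ltf, and Fcnb UMIs in 19 of 21. In 26 others, Retnlg was at least 1% of UMIs. They had a median of 3024 UMIs, a median of 4.42% from Ngp, Camp and Ltf, and no UMI of any proliferation gene or of Fcnb, while Mmp8 was found in 26 of 26 and Cxcr2 in 21 of 26. The remaining 25 lay between, with a median of 4286 UMIs. Of all 74, 11 had a Retnlg share between 0.5% and 2%, and 1 of the 21 proliferation barcodes, from Coch + Tmx P33, also met the Retnlg cutoff.

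**Figure D2:**
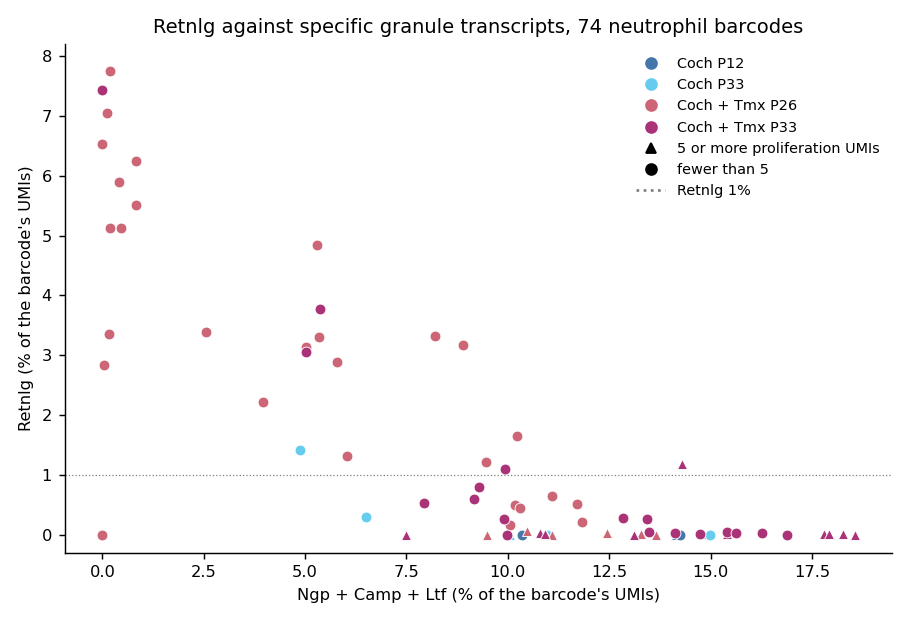
Each of the 74 neutrophil barcodes by the percentage of its UMIs from Ngp, Camp and Ltf (x axis) and from Retnlg (y axis), coloured by group; triangles have 5 or more proliferation UMIs and the dotted line marks 1% Retnlg. Most triangles lie at the lower right and the Retnlg-rich circles at the upper left, with a Spearman's rho of −0.774 over 72 barcodes.

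Stage composition differed in its counts between the groups. Retnlg-rich barcodes were 0 of 3 in Coch P12, 1 of 6 in Coch P33, 21 of 35 in Coch + Tmx P26 and 4 of 30 in Coch + Tmx P33. By library they were 7 of 13, 10 of 17 and, in the P26 library labelled rep 3, 4 of 5 at P26, against 2 of 14 and 2 of 16 at P33. Proliferation barcodes were 1 of 3, 1 of 6, 7 of 35 and 12 of 30 in the same order of groups, with 4 of 13, 2 of 17 and 1 of 5 at P26 and 8 of 14 and 4 of 16 at P33. The P26 and P33 induced libraries did not overlap in the Retnlg-rich share (53.8% at the lowest against 14.3% at the highest), and they overlapped in the proliferation share. No test was made, because the cutoffs were set on these barcodes. The proliferation counts were not adjusted for depth.

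With every barcode thinned to 1000 UMIs, so that depth was equal, a Retnlg UMI was found in 76.9%, 88.2% and 80% of the Coch + Tmx P26 neutrophils, in 42.9% and 37.5% of those of Coch + Tmx P33 and in 33.3% of those of Coch P33. Without thinning these shares were 76.9%, 94.1% and 100%, then 71.4% and 87.5%, then 33.3%. At 1000 UMIs the induced P26 and P33 libraries did not overlap. At 500 UMIs the lowest P26 share was 69.2% and the highest induced P33 share 42.9%. At 2000 UMIs the gap was narrow, with 61.5% in Coch + Tmx P26 rep 1 against 57.1% in Coch + Tmx P33 rep 1. Each depth was a single random draw. At full depth Coch + Tmx P26 rep 1 fell below Coch + Tmx P33 rep 2. A UMI of the proliferation list was found in 22.3% ± 19.3 of thinned neutrophils (SD, n = 6 libraries with 5 or more), one of the azurophil list in 45.2% ± 18 and one of the specific granule list in 100% in each of the 6 libraries.

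The azurophil list of 8 genes stands for the earliest granule stage, and its protease transcripts came mostly from 2 barcodes. Elane, neutrophil elastase (chromosome 10, 79886312 to 79888216), had 157 UMIs in all. Of these, 78 were in 1 barcode of the P26 library labelled rep 3, which held 20106 UMIs, and 66 were in 1 barcode of Coch + Tmx P33 rep 2. Prtn3, proteinase 3, which lies next to Elane (chromosome 10, 79879667 to 79883174), was found in 12 barcodes, with 20 UMIs and 40 UMIs in the same 2 barcodes and 29 UMIs in 7 barcodes of Coch + Tmx P33 rep 1. Both of the Elane-rich barcodes also had proliferation UMIs (17 and 33). Mpo, myeloperoxidase, was found in 3 barcodes and Ctsg, cathepsin G, in 2. Serpinb1a, an inhibitor of these proteases, was broader, in 59 of 74 barcodes.

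Specific granule and myelocyte genes were found in all 8 libraries, apart from Olfm4. Lcn2 was detected in 74 of 74 barcodes at 7622 to 15596 CPM, Hp (haptoglobin) in 74 at 1092 to 2851 CPM and Anxa1 (annexin A1) in 74 at 1470 to 3995 CPM, with the P26 library labelled rep 3 lowest for Lcn2 and Anxa1 and highest for Hp. Ngp (chromosome 9, 110419808 to 110423012), Camp (chromosome 9, 109847377 to 109849456) and Ltf, lactoferrin (chromosome 9, 111019292 to 111042766), ranged from 21187 to 68571, 34541 to 76351 and 1891 to 11246 CPM. Ngp was highest in the 2 Coch + Tmx P33 libraries, and all 3 genes were lowest in the P26 library labelled rep 3. Olfm4, olfactomedin 4, had UMIs in 4 barcodes.

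Promoter sequences of granule genes are shown because these genes carried the range of stages, as listed by RefSeq for GRCm38.p6 from 250 bases before to 50 after the gene start. In 6 lists (calprotectin, further selection genes, azurophil, specific and gelatinase granules, and stefins), 32 of 38 genes had an entry. They were searched on both strands for TTGCNNAA, a core that C/EBP factors can bind, and for GAGGAAGT, a core that ETS factors such as PU.1 can bind; both were chosen after the values were seen. TTGCNNAA stood in 11 of the 32 (34.4%) and in 10.8% of all 32851 promoters, and GAGGAAGT in 8 of the 32 (25%) and in 3.2% of all. Among the further selection genes, Ltf, Mmp8, Ngp and Retnlg held TTGCNNAA, and among the 6 azurophil genes with an entry, Ctsc, Elane, Mpo and Prtn3 held GAGGAAGT. In the stretches below, capitals mark the motif, or its reverse complement, and each reads 5′ to 3′ along the gene. The Ngp stretch is chr9:110419640-110419834 (+), Ltf chr9:111019187-111019254 (+), Fcnb chr2:28084964-28085128 (−), Retnlg chr16:48872358-48872399 (+), Elane chr10:79886197-79886264 (+) and Prtn3 chr10:79879542-79879609 (+). Camp, chr9:109849447-109849546 (−), is shown as a granule gene with neither motif in its window.
Ngp: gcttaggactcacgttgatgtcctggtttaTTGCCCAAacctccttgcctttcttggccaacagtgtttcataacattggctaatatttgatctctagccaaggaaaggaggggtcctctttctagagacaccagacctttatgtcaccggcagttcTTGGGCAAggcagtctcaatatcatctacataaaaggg
Ltf: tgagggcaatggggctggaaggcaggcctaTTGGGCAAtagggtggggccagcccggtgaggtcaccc
Fcnb: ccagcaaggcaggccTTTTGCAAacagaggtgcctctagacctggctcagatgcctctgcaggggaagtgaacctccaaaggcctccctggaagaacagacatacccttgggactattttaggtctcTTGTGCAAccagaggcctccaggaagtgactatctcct
Retnlg: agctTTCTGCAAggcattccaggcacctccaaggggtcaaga
Elane: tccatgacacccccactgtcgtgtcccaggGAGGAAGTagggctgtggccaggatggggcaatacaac
Prtn3: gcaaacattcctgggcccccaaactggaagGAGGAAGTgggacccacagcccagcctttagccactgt
Camp: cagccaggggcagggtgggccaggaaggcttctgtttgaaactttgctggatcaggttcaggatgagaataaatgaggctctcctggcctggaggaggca
The letters describe these windows only; binding of any factor was not measured here.

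Later stages were marked by a handful of genes. Retnlg, a resistin-like protein (chromosome 16, 48872608 to 48874498), was at 0 UMIs in both Coch P12 libraries, where 3 neutrophils in all allow up to 269 and 234 CPM (3 counts per library), and at 2021 CPM in Coch P33. It was at 13527, 17415 and 25148 CPM in Coch + Tmx P26, the last in the library labelled rep 3, and at 4204 and 2562 CPM in Coch + Tmx P33. Mmp8, neutrophil collagenase, was at 0 in Coch P12, 517 CPM in Coch P33, 1043, 1673 and 1050 CPM in Coch + Tmx P26 and 455 and 366 CPM in Coch + Tmx P33. Mmp9, gelatinase B, which the selection did not use, had the same zeros in Coch P12, with 447 CPM in Coch P33, 890, 1401 and 540 CPM in Coch + Tmx P26 and 284 and 418 CPM in Coch + Tmx P33. For all 3 genes each P26 library lay above each induced P33 library and above Coch P33. For Retnlg and Mmp8, Coch P33 lay closer to both induced P33 libraries than to any P26 library. For Mmp9, Coch P33 (447 CPM) lay nearer to the lowest P26 library (540 CPM) than to Coch + Tmx P33 rep 1 (284 CPM). Pglyrp1, a peptidoglycan recognition protein of the gelatinase list, was in 74 of 74 barcodes at 1716 to 4570 CPM.

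Of the 16 receptor genes of mature neutrophils, each had at least 1 UMI, and their sum was 358 and 1092 CPM in Coch P12, 1316 in Coch P33, 1672 to 3246 in Coch + Tmx P26 and 1217 and 1203 in Coch + Tmx P33. Cxcr2, a selection gene outside that list, had 0 UMIs in Coch P12, where 0 UMIs allow up to 269 and 234 CPM. It was at 47 CPM in Coch P33, 245, 357 and 360 CPM at P26 and 52.3 and 20.9 CPM in induced P33. Coch P12 can thus not be placed below Coch P33 or induced P33 for this gene. Itgb2, the shared integrin beta chain, was found in 56 barcodes and Fcgr3, an Fc receptor, in 54. Csf3r, the receptor for the growth factor G-CSF, was in 26 of 74 barcodes at 0 to 270 CPM.

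**Figure D3:**
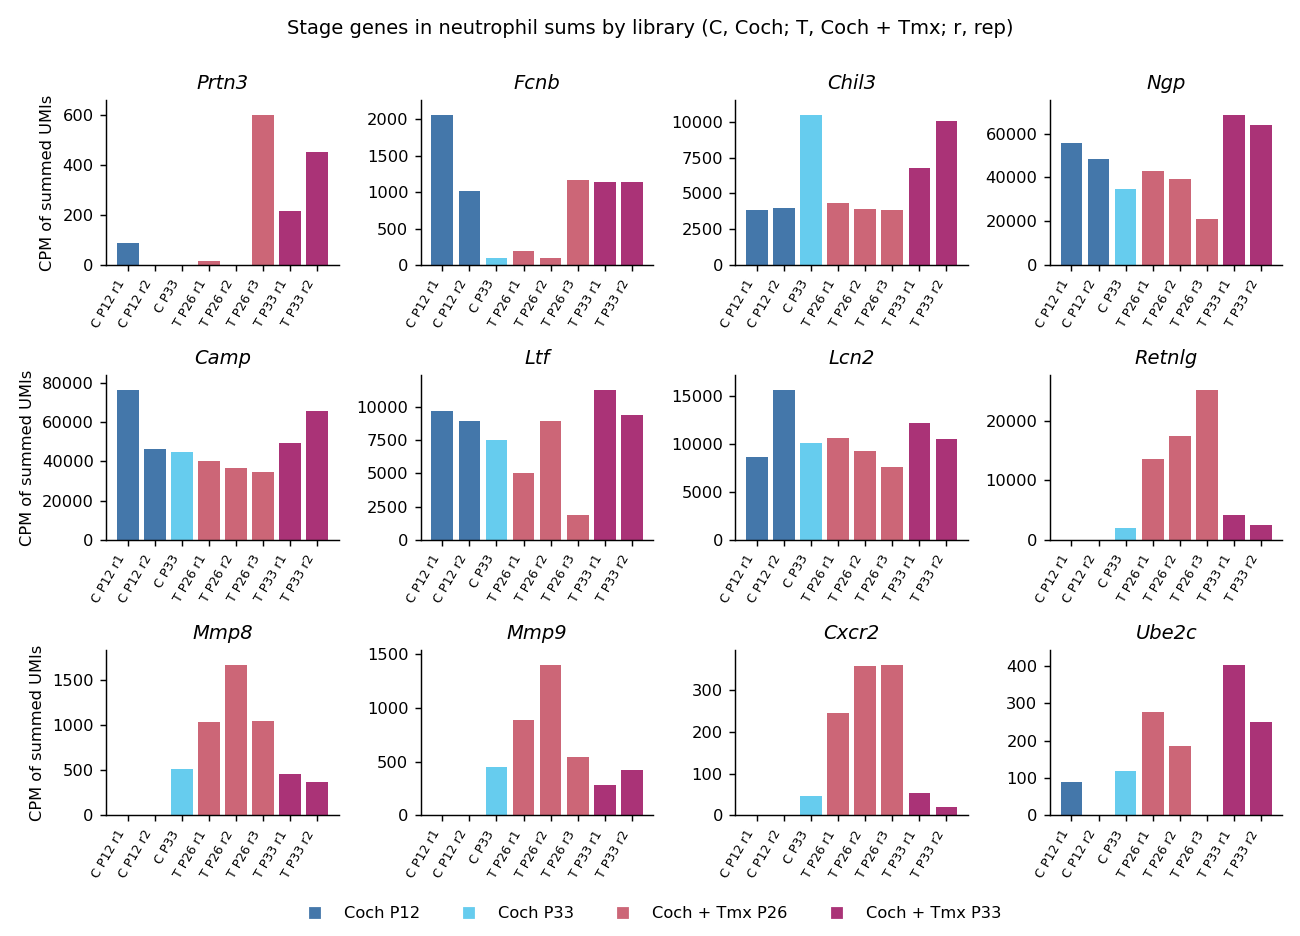
CPM of 12 stage genes in the summed neutrophil UMIs of each library; bars are single libraries, coloured by group, and each panel starts at 0. Retnlg, Mmp8, Mmp9 and Cxcr2 are highest among the Coch + Tmx P26 libraries. They are at 0 in Coch P12, where 0 UMIs allow up to 269 and 234 CPM. Fcnb is 94 to 199 CPM in Coch P33 and the first 2 Coch + Tmx P26 libraries and 1014 to 2061 CPM in the other 5.

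Effector genes split into present and near absent. All 6 NADPH oxidase genes, whose complex makes the oxidative burst, were detected in every library, and their sum was 4231 to 6990 CPM. Cyba was in 73 barcodes, Rac2 in 74 and Cybb in 64. Inflammatory cytokine and chemokine genes were low: of 10, Ptgs2 and Nlrp3 had 0 UMIs over the 464527 neutrophil UMIs, Il1b had 5 UMIs in 2 barcodes and Tnf 6 in 6 barcodes. Ccl6, a constitutive myeloid chemokine, led the list with 75 UMIs in 18 barcodes, of which 36 were in the P26 library labelled rep 3. Interferon-response genes had Rsad2 and Cxcl10 at 0 and Isg15 at 8 UMIs, while Ifitm3, which is also expressed without interferon, was in 66 barcodes at 89.6 to 1457 CPM. Spi1 (PU.1) and Cebpb were detected in 66 and 59 barcodes and Cebpe in 48, at 450 to 1326 CPM, highest in the 2 Coch P12 libraries. Gfi1 was in 9 barcodes and Irf8, a monocyte factor, in 3. Cebpd was not analysed here.

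Stefin A genes, a cluster of near-identical cysteine protease inhibitors on chromosome 16, differed between libraries of the same group. Summed over Stfa1, Stfa2, Stfa2l1, Stfa3 and BC100530, they took 1.35% and 10.1% of the UMIs of the 2 Coch P12 rep 1 neutrophils and 11.5% of those of the single Coch P12 rep 2 neutrophil. None of the 6 Coch P33 neutrophils had a UMI. In Coch + Tmx P26, 11 of 13 rep 1 neutrophils had one, with up to 102 UMIs, against 3 of 17 in rep 2 and, with at most 3 UMIs, 3 of 5 in the library labelled rep 3. In Coch + Tmx P33, 10 of 14 rep 1 neutrophils had one, with up to 254 UMIs, against 3 of 16 in rep 2, with up to 15. The 2 replicates with 13 or more neutrophils thus differed within each induced group. The other kept barcodes held 0 to 4.08 CPM of the same genes. Because reads of these copies can be divided among them or lost, levels of the single genes are uncertain, and only the sum is compared. Cstb, a cystatin outside the cluster, was in 30 barcodes at 0 to 188 CPM.

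**Figure D4:**
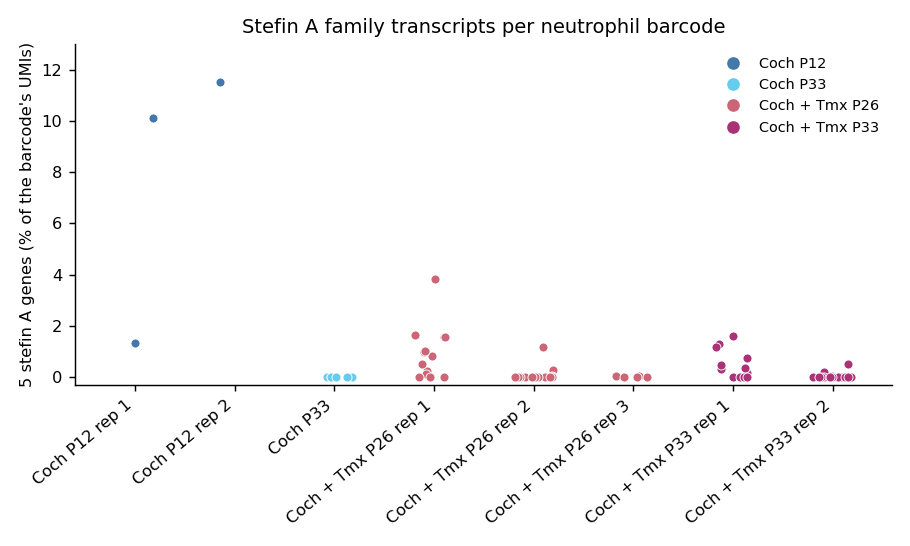
Percentage of UMIs from 5 stefin A genes in each neutrophil barcode, by library; points are barcodes, spread sideways for legibility. The highest 2 points are P12 barcodes at 10.1% and 11.5%, Coch P33 lies at 0, and values above 0 are frequent in rep 1 of both induced groups.

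UMIs summed over the neutrophils of a library were compared with edgeR's quasi-likelihood test wherever 2 groups had 2 libraries with at least 10 neutrophils. That left Coch + Tmx P33 (14 and 16 neutrophils) against Coch + Tmx P26 (13 and 17; the library labelled rep 3 had 5 and was not in the fit). Of 803 genes tested, 25 passed an adjusted p of 0.05 (3.11%), 9 higher at P33 (1.12%) and 16 lower (1.99%). The 3 selection genes among them are given as a description only. The count depended on which cells and libraries were used. Without Coch + Tmx P26 rep 2, 0 genes passed (143 at an unadjusted p under 0.05). With the P26 library labelled rep 3 added, 3 passed: Mbp and the selection genes Retnlg and Cxcr2. Without the 1 barcode of Coch + Tmx P26 rep 1 that had no Retnlg, Ngp, Camp or Ltf, 5 passed: Fcnb, Retnlg, Padi4, Gm5483 and Mbp. Without both barcodes of the fit that had Ccr2 or F13a1 UMIs, 12 passed, Prtn3, Mmp9 and these 5 among them. A barcode of Coch + Tmx P26 rep 2 had 13 UMIs of stromal, epithelial, glial, hair cell and macrophage markers. Without that barcode, the only one of the fit with at least 5 such UMIs, 4 genes passed: Retnlg, Padi4, Gm5483 and Mbp. Fcnb and Prtn3 did not pass there. Thinned to 1000 UMIs, 0 of 145 genes passed (19 at an unadjusted p under 0.05), and 18 of the 25 were too low to be tested. Median UMIs per neutrophil were 10017 and 3977 at P33 against 4342 and 3816 at P26, and the part of depth and of stage composition in these results was not tested.

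Higher at P33 were Prtn3, of 3 azurophil genes tested, and Fcnb and Chil3, of 9 specific granule genes tested. Fcnb had 153 and 109 UMIs at P33 against 13 and 7 at P26 (log2 fold change 2.99, SE 0.353, adjusted p = 0.000244), but 39 UMIs (1170 CPM) in the library labelled rep 3, as high as the P33 libraries. Prtn3 had 29 and 43 UMIs against 1 and 0 (log2 fold change 5.28, SE 0.87, adjusted p = 0.00432), with 20 UMIs in that library, so neither gene separates all P26 from all P33 libraries. The Prtn3 UMIs at P33 came mostly from 3 barcodes, 1 with 40 of the 43 and 2 with 21 of the 29. Chil3, a chitinase-like protein of myelocytes, had a log2 fold change of 1.09 (adjusted p = 0.0495). The others were Tuba1b, a tubulin, 2810417H13Rik, a replication-associated factor, Scp2, a sterol carrier protein, and the ribosomal protein genes Rps26, Rps28 and Rpl36a. Their log2 fold changes were 1.53 to 2.01. In the library labelled rep 3, Rps26 (960 CPM), Rpl36a (660 CPM) and 2810417H13Rik (480 CPM) lay above both P33 libraries. Rps28 (1440 CPM) lay above Coch + Tmx P33 rep 2 (1265 CPM) there. Rps26, Rpl36a, 2810417H13Rik and Rps28 thus do not separate all P26 from all P33 libraries either. Tuba1b, Scp2 and Chil3 lay below both P33 libraries in the library labelled rep 3. The selection genes Ngp, Camp and Ltf had log2 fold changes of 0.74, 0.64 and 0.58, given as a description without a test. None of the 4 proliferation genes tested passed, with a median log2 fold change of 0.51 against 0.02 over all genes tested.

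Lower at P33 were 16 genes, of which Mmp9 was 1 of 2 gelatinase granule genes tested and Retnlg, Cxcr2 and Mmp8 were selection genes, described here without a test. Retnlg had 563 and 245 UMIs at P33 against 882 and 1218 at P26 (log2 fold change −2.17), and the library labelled rep 3, at 838 UMIs from 5 neutrophils, lay on the P26 side. The log2 fold change of Cxcr2 was −2.89 and that of Mmp8 −1.69. Mmp9, not used in the selection, fell by 1.69 on the log2 scale (SE 0.355, adjusted p = 0.02). After thinning to 1000 UMIs its log2 fold change was −0.52 and did not pass (adjusted p = 0.6). Padi4, the enzyme that citrullinates histones in neutrophil extracellular traps, fell by 2.61 (SE 0.44, adjusted p = 0.00455), with 8 and 5 UMIs against 27 and 22. Others lower at P33 were Dusp1, a phosphatase of MAP kinases, Asprv1, a retroviral-like protease, Hacd4, Timp2, an inhibitor of metalloproteinases, Rgs2, Map1lc3b, of the autophagosome membrane, Ypel3 and S100a6, with log2 fold changes from −2.88 to −1.37. None of the 6 receptor genes tested passed, though the log2 fold changes of all 6 were below 0 with a median of −1.15. The log2 fold changes of the selection genes S100a8 (−0.03) and S100a9 (0.07) are given as a description only.

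The 3 lowest fold changes were those of Mbp, Gm5483 and Gm42418. Mbp, myelin basic protein, had 2 and 3 UMIs at P33 against 32 and 43 at P26 (log2 fold change −4.54, SE 0.535, adjusted p = 0.000244). The other kept barcodes of the same libraries held 43.1 and 49.9 CPM of Mbp at P33 against 256 and 1196 at P26; the part of these cells in the Mbp result was not tested. Gm42418 (−3.33) overlaps a ribosomal RNA repeat, so its reads are uncertain. Gm5483 (−4.02) had 3 and 1 UMIs at P33 against 22 and 20 at P26, none in Coch P33 or the library labelled rep 3, and 12098 and 20275 CPM in the 2 Coch P12 libraries. The stefin genes Stfa1 and BC100530 were also highest in Coch P12 and at 0 UMIs in Coch P33, but they overlapped between the induced ages. Gm5483 was not part of the stefin sum, and its relation to those genes was not tested.

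**Figure D5:**
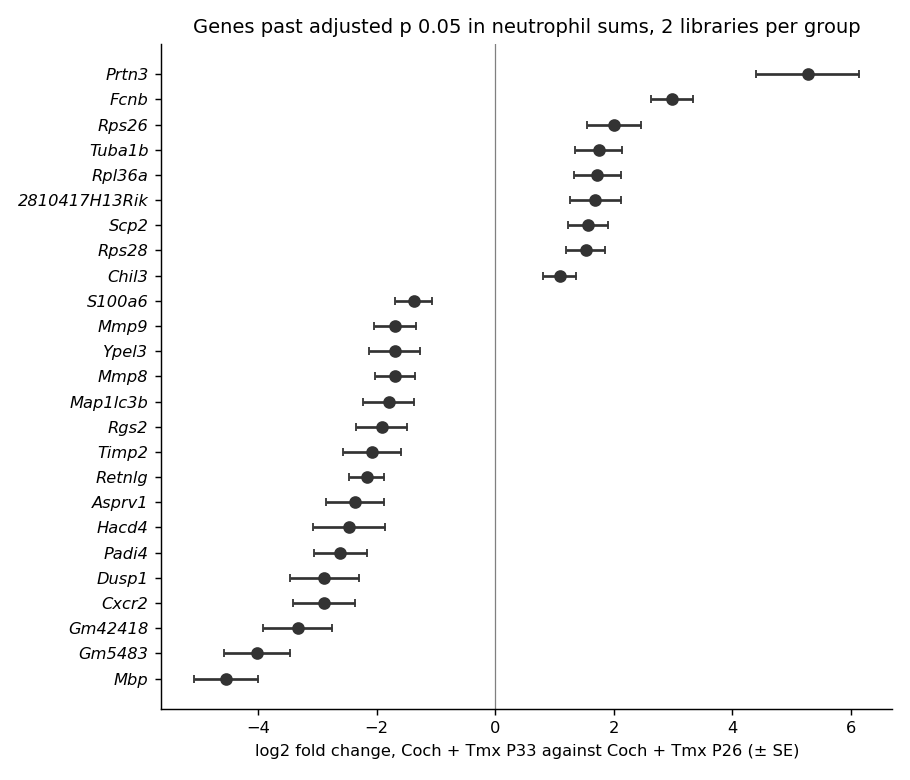
Log2 fold change (± SE) of the 25 genes past an adjusted p of 0.05 between the neutrophil sums of Coch + Tmx P33 and Coch + Tmx P26, 2 libraries each; values to the right are higher at P33. Prtn3 (5.28) and Fcnb (2.99) lead the 9 higher genes, and Mbp (−4.54) and Gm5483 (−4.02) the 16 lower ones; Retnlg, Cxcr2 and Mmp8 are selection genes.

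Which other cells moved with the neutrophil share was examined over the 8 libraries for 3 relations. The share had Pearson's r = 0.637 with calprotectin CPM in the other kept barcodes (exact permutation p = 0.0955, adjusted p = 0.143; Spearman's rho = 0.619, p = 0.115). Its r with the share of hemoglobin-rich barcodes, those with at least 50% of UMIs from hemoglobin genes, was −0.0417 (exact permutation p = 0.932, adjusted p = 0.932; rho = 0.238, p = 0.582). The B lineage relation turned on 1 marker. With the 7-gene list, 49.8% to 73.2% of kept barcodes counted as B lineage (at least 3 UMIs of the list), and r was −0.698 (exact permutation p = 0.0648, adjusted p = 0.143; rho = −0.643, p = 0.0962). Without Ebf1, an alternative added after seeing this, B lineage barcodes were 0.681% to 8.37% of kept barcodes and r was 0.691 (exact permutation p = 0.0575, adjusted p = 0.143; rho = 0.714, p = 0.0576). None passed 0.05. Leaving out the 2 libraries farthest from the median share, Coch + Tmx P26 rep 2 and Coch + Tmx P33 rep 1, gave r = 0.593, 0.255, −0.699 and, without Ebf1, 0.748. Over the 6 later libraries alone r was 0.244, −0.85, −0.225 and, without Ebf1, 0.536. The lowest adjusted p by exact permutation there was 0.0833, for the hemoglobin relation. The calprotectin relation, which had not passed over all 8 libraries, was thus weaker without the 2 Coch P12 libraries (adjusted exact permutation p = 0.647). Its r was 0.900 when Coch P33 alone was left out.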

How the data were processed

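Cochleae were dissociated with enzymes and encapsulated with 10x Genomics Chromium 3′ v2 kits, and Illumina sequencing followed. Alignment by the authors used mouse build mm10 and Cell Ranger (version not given in the sources used here), and the deposited values are raw UMI counts per gene and barcode, 27998 genes in each of 8 matrices. Groups and replicate numbers came from the labels.

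Of 8061 barcodes, 1954 were under 500 detected genes and 84 of the rest were at or over the mitochondrial limit. Members, gene lists, markers and tests were chosen with earlier results of these data known. The genes named were those of 12 role lists, the 10 largest rises and falls among called genes whose libraries did not overlap, and the 25 genes with the largest CPM ratio to macrophage-like barcodes at 100 or more member UMIs. Remaining called genes are named after their values were seen, and so are Ccr2 and F13a1.

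Member UMIs were summed per library and tested with edgeR 4.0.16 in R 4.3.3 (TMM, filterByExpr, quasi-likelihood, Benjamini-Hochberg over all genes tested). The SE of a log2 fold change was derived from that test, as its absolute value divided by the square root of the F statistic. Shares and correlations were tested over libraries by exact enumeration (scipy 1.17.1, numpy 2.4.6), two-sided, with adjustment over 3 relations. Doublets were not removed; leaving out the highest scrublet scores (scanpy 1.11.5) at 0.8% per 1000 barcodes took out 41 kept barcodes and no neutrophil. Thinning drew UMIs without replacement. The code was tested on simulated data. Alternatives included DESeq2 1.42.0, other cutoffs, no filter and leaving out each library. Promoters came from RefSeq. Some items are not reported here.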

Additional observations from a re-analysis of the deposited data

Results flagged for a closer look

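In the 5 induced libraries, 19 values were examined for a library far from the others, and chance flags about 1 in 20 such groups. The median UMIs per neutrophil stood apart in Coch + Tmx P33 rep 1 (10017, against 3364 to 4342 in the other 4). The P26 library labelled rep 3, with 5 neutrophils, stood apart in 3 list sums: gelatinase granule genes were lowest (3061 CPM, against 4107 to 4288), cytokine and chemokine genes highest (1350 CPM, against 52.3 to 343), 36 of their 45 UMIs being Ccl6, and interferon-response genes highest (2971 CPM, against 644 to 972), 52 of their 99 UMIs being Ifi27l2a. Granulocyte transcription factors were highest in Coch + Tmx P33 rep 1 (2442 CPM, against 1820 to 1987).

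Outside the kept barcodes, 2 barcodes of Coch + Tmx P26 rep 1 met the rest of the rule with 454 and 486 detected genes, under the minimum of 500; they held 145 and 176 calprotectin UMIs. No such barcode was found in the other 7 libraries, induced or uninduced.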

How the results depend on the processing

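Both share differences kept their direction in all 36 alternatives; most of these could not have passed 0.05, so their p-values say nothing of stability. Leaving out 1 library gave 1.44 to 1.98 percentage points for induced minus uninduced and −2 to −1.58 for P12 minus later ages; permuting within replicate number (replicate block, without Coch P33) gave 1.97 and −1.97, both with an exact p of 0.222, the smallest possible there. The contrast of the induced ages called 25 genes. It called 15 with DESeq2, 22 with RLE size factors, 37 without a filter on low counts, 3 with a minimum of 5 members, 0 after thinning, 4 without members that had UMIs of other lineages, 5 without the member that had no Retnlg, Ngp, Camp or Ltf, 12 without both members with Ccr2 or F13a1 UMIs (these last 2 alternatives were chosen after seeing the data) and 0 (without Coch + Tmx P26 rep 2) to 86 (without Coch + Tmx P26 rep 1) when a library was left out, where the lone library was assumed to vary like the others. The replicate block gave 55; deviations of same-numbered libraries correlated at 0.319 over 803 genes, and with only 2 pairs the numbers were not taken as pairing. The 25 called genes kept their direction in all 307 refits of single genes and passed in 149. Mean shares of members with an azurophil UMI (45.2% at 1000 UMIs) were 63.2% at 2000 UMIs and 77.7% unthinned, and with a gelatinase UMI 95.7% at 1000 and 87% at 500 UMIs; fewer or more UMIs are drawn by construction.

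For calprotectin, r was 0.523 to 0.900 with 1 library left out (0.900 without Coch P33, adjusted exact permutation p = 0.0411) and 0.853 on log2 values. For B lineage, it was −0.906 (without the P26 library labelled rep 3) to −0.584, −0.782 on log2 values and 0.691 without Ebf1. For hemoglobin-rich barcodes, it turned sign without Coch + Tmx P26 rep 2 (0.0398), the P26 library labelled rep 3 (0.241), or either induced P33 library (0.0587 without rep 1, 0.00523 without rep 2) and on log2 values (0.428), with a lowest value of −0.357. The cause of these changes was not tested. Contrasts with Coch P12 (3 members in all) and a minimum of 20 members per library (reached by none) could not be fitted. The limits are few members (1 to 17 per library), sums that weigh deep barcodes more, 2 libraries per group in the fit and 1 uninduced P33 library.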
